A study of Homo sapiens with 2 samples.

Results

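The miRNAs described here come from the precursors with the highest numbers in a small RNA sequencing table of hCMEC/D3. This immortalised line was made from the endothelium of small human brain vessels, and it stands in for the blood-brain barrier in culture. All rows whose precursor is hsa-mir-N with N of 5000 or more were taken, whatever the suffix, without regard to any measured value. They are 219 of the 2363 rows of the table, and hold 199 of its 2042 mature miRNA names (9.75%) and 157 of its 1600 precursors, up to number 6724. The study has 1 group, untreated as far as the labels say, with 2 libraries that the labels number replicate 2 and replicate 8. No label says whether they came from separate cultures, so differences between them may be technical, and there is no second condition to compare. The labels name no passage and no growth conditions.

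A miRNA is cut from a hairpin-shaped precursor. In the usual route Drosha trims the hairpin out of a longer transcript in the nucleus and Dicer removes its loop in the cytoplasm, leaving a duplex of a 5p arm and a 3p arm. One arm is loaded into an Argonaute protein, and its seed, the bases just behind the 5′ end, pairs with target mRNAs. Reads from both arms are one of the features by which a hairpin is judged to be processed as a miRNA. Mirtrons take another route: the hairpin lies at the end of an intron and is released by splicing, so that an arm ends where the intron ends. Precursor numbers are given in the order in which miRNAs enter the registry, so high numbers belong to late entries, many of them found by deep sequencing rather than cloning.

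Detection was set at 10 counts or more in each library, and 19 of the 199 names reached it. The sequences of 15 of these 19 are in RefSeq and are printed here because detection, copy number, arm support and intron position all turn on them. They are the RefSeq entries of GRCh38.p14, 5′ to 3′, and the capitals mark the seed (bases 2 to 8).
miR-5701: uUAUUGUCacguucugauu
miR-5100: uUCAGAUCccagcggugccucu
miR-6511a-3p: cCUCACCAucccuucugccugc
miR-6511b-3p: cCUCACCAccccuucugccugca
miR-6511a-5p: cAGGCAGAaguggggcugacagg
miR-6511b-5p: cUGCAGGCagaaguggggcugaca
miR-5010-3p: uUUUGUGUcucccauuccccag
miR-6500-3p: aCACUUGUugggaugaccugc
miR-6501-5p: aGUUGCCAgggcugccuuuggu
miR-6716-3p: uCCGAACUcuccauuccucugc
miR-6724-5p: cUGGGCCCgcggcgggcgugggg
miR-5001-5p: aGGGCUGGacucagcggcggagcu
miR-5585-3p: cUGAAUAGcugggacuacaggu
miR-6514-5p: uAUGGAGUggacuuucagcuggc
miR-5187-5p: uGGGAUGAgggauugaagugga
The other detected names are miR-6087, miR-5096, miR-5001-3p and miR-6515-5p. These 15 sequences were 19 to 24 bases long with a median of 22. Their GC content ran from 31.6% in miR-5701 to 91.3% in miR-6724-5p, with a median of 59.1%, against 50% in the 161 undetected members with a sequence and 52% in all 435 detected names of the table with one. The miR-6511 names, at 62.5% to 65.2%, overlap or nearly match one another, so they are not independent. All of them lie above the median of 59.1%, which therefore leans on 1 family. Seeds were shared by 3 of the 15 with another of the 1716 names of the table that have a sequence. The 3p names of miR-6511a and miR-6511b share CUCACCA with each other. The third, miR-5001-5p, shares GGGCUGG with miR-4498, miR-4492 and miR-762, of which 1 was detected, and the highest of these reached 6.06 CPM (the count scaled to a fixed library total, comparable between the libraries).

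The line was first checked against its cell type. The endothelial miRNA miR-126-3p stood at 112226 ± 4003 CPM (SD, n = 2), and miR-221-3p, miR-222-3p and miR-100-5p were also abundant, at 12544 CPM or more, while miR-126-5p stood at 694 CPM. The blood cell miRNAs miR-223-3p and miR-142-3p had 0 counts in both libraries, and neuronal miR-124-3p had 3 and 1. Among the other markers from outside the endothelium, the hepatocyte miRNA miR-122-5p had 639 and 688 counts. The mural cell miRNA miR-143-3p had 2000 and 871 counts and its partner miR-145-5p had 271 and 200. Epithelial miR-200c-3p had 118 and 85 counts, and miR-205-5p had 15 and 0. Whether any of these bears on the members was not tested. After the repeated rows of a mature name were reduced to the one with the highest mean count, the libraries held 2721287 counts (replicate 2) and 2727675 counts (replicate 8). A count of 0 therefore allows a level of up to 1.10 CPM (3 counts) in either. The labels mention no molecular identifiers, so all intervals, limits and tests cover counting error only.

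Most of the high-numbered entries were not detectable in this line at this depth. The 19 detected names are 9.55% of the members, against 26.6% of all names in the table (543 of 2042) and 28.4% of the names outside the group (524 of 1843). No count in either library was found for 125 members (62.8%), against 44.5% of all names. At 100 or more counts in both libraries there were 7 members, or 3.52% of them, against 13.9% of all names. Only miR-5701 reached 1000 counts in both, against 129 names of the table.

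Between these extremes, 55 members had a count but did not reach detection, 29 of them in both libraries, 8 in replicate 2 alone and 18 in replicate 8 alone. Of these faint names, 28 had at most 3 counts in either library. Just under the detection limit lay a few members that are named here because of their values: miR-5091 with 18 and 9 counts (replicate 2 and replicate 8), miR-5684 with 11 and 4, miR-6131 with 12 and 3, miR-6715b-3p with 8 and 17, and miR-5090 with 8 and 10. The lowest detected member was miR-5187-5p, with 11 and 10 counts.

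Detection was lower in each band of precursor numbers up to those from 4000 to 5000, and was no lower beyond. The detected share was 41.1% for numbers below 1000, 31.6% from 1000 to below 3000, 19.9% from 3000 to below 4000 and 8.53% from 4000 to below 5000. The high-numbered group, at 9.55%, therefore sat beside its nearest neighbours. At the boundary itself the 5p arm of mir-4999 had 3 and 6 counts, both arms of mir-5000 had 0, and the 5p arm of mir-5001 had 46 and 33. Where a member of this group was detected its level was less low: the median was 28.3 CPM, above the 9.54 CPM of detected names numbered from 4000 to below 5000 and the 17.9 CPM of those from 3000 to below 4000, but under the 49.9 CPM of all detected names. These differences between bands are descriptions without a test.

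**Figure D1:**
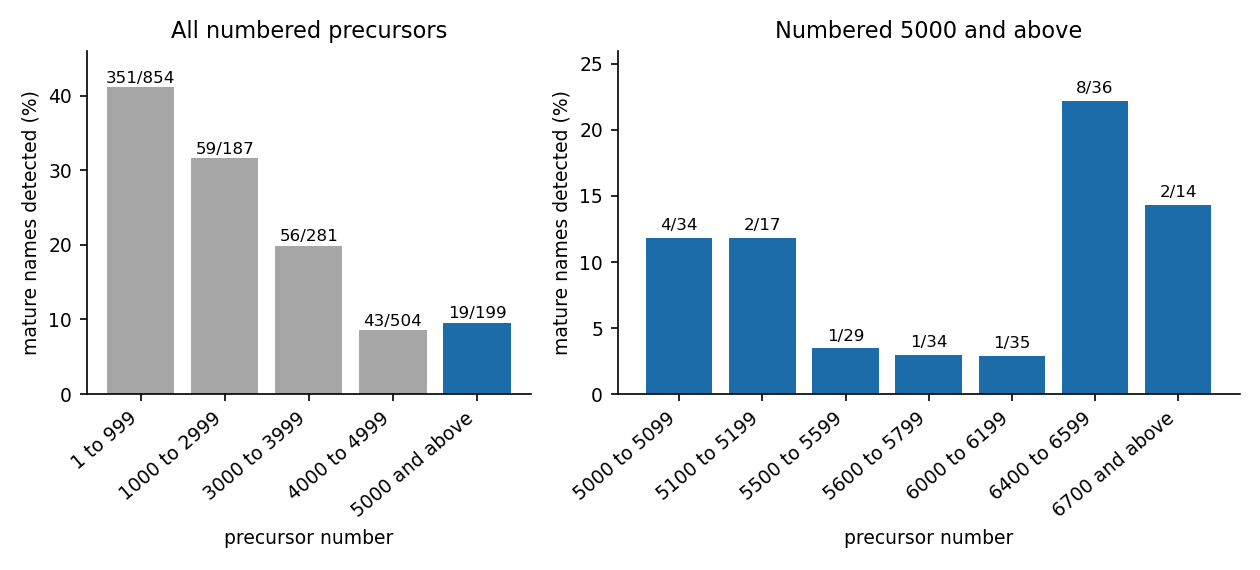
Share of mature names with at least 10 counts in both libraries (y axis, percent) by precursor number (x axis), for all numbered precursors on the left and within the numbers from 5000 up on the right. The labels on the bars are detected names over all names. The share was 8.53% from 4000 to below 5000 and 9.55% from 5000 up, where the block from 6400 to below 6600 had 8 of 36 detected.

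Within the group, detection was uneven. The numbers from 6400 to below 6600 had 8 of 36 names detected (22.2%), 4 of them miR-6511 names. From 5500 to below 6200 there were 3 detected names, miR-5585-3p, miR-5701 and miR-6087. Names given with an arm were detected in 15 of 110 cases and names without one in 4 of 89, and the highest levels were among those without: miR-5701, miR-5100, miR-6087 and miR-5096.

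In all, the members held 7699 counts in replicate 2, or 0.283% of the library (95% Wilson interval 0.277 to 0.289), and 6018 counts in replicate 8, or 0.221% (0.215 to 0.226). The mean share was 0.252% ± 0.044 (SD, n = 2). The intervals do not overlap, so the libraries differed by more than counting error. The order of the libraries turned on the most abundant names. Of the members' counts, miR-5701 held 68.9% in replicate 2 and 57.7% in replicate 8. Without it the members had 2391 counts (0.0879%) and 2547 counts (0.0934%), and the order of the libraries turned round. Of these remaining counts, miR-5100 held 668 in replicate 2 and 1265 in replicate 8. Most members went the other way: 27 of the 33 with at least 10 summed counts, miR-5701 among them, lay lower in replicate 8. That is 81.8%, against 61.2% of all names past the same filter. Together, the 19 detected names held 97.5% and 97.2% of the members' counts.

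With 5308 counts in replicate 2 and 3471 counts in replicate 8, miR-5701 was the most abundant member, at 1612 ± 479 CPM (SD, n = 2) and in place 65 of the 2042 names. Next was miR-5100, with 668 and 1265 counts, 355 ± 154 CPM and place 138. These were the only members above 100 CPM in the mean, and the libraries ranked them in the same order although their ratios ran in opposite directions.

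Lower down, miR-6087 had 266 and 128 counts (72.3 ± 35.9 CPM), and miR-5096 had 180 and 107 (52.7 ± 19.0 CPM). The names miR-6511a-3p, miR-5010-3p and miR-6511b-3p followed at 49.9 ± 4.75, 49.2 ± 8.39 and 45.9 ± 16.2 CPM. Each of these lay within the spread of the others, so their order is not resolved. Then came miR-6500-3p with 103 and 101 counts (37.4 ± 0.58 CPM), miR-6511b-5p with 81 and 75 (28.6 ± 1.60 CPM) and miR-6501-5p with 79 and 75 (28.3 ± 1.09 CPM), and the last pair differed by less than their spread.

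Of the remaining detected names, miR-6716-3p had 75 and 63 counts and miR-6724-5p had 65 and 69, so they lay close together at 25.3 ± 3.16 and 24.6 ± 1.0 CPM. Both arms of mir-5001 and miR-6511a-5p lay between 14.1 and 14.5 CPM. The lowest 4 were miR-5585-3p with 42 and 15 counts, miR-6515-5p with 14 and 22, miR-6514-5p with 24 and 11, and miR-5187-5p. Ligation of adaptors favours some small RNA ends over others, so levels of different miRNAs within a library are less comparable than levels of one miRNA between libraries.

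**Figure D2:**
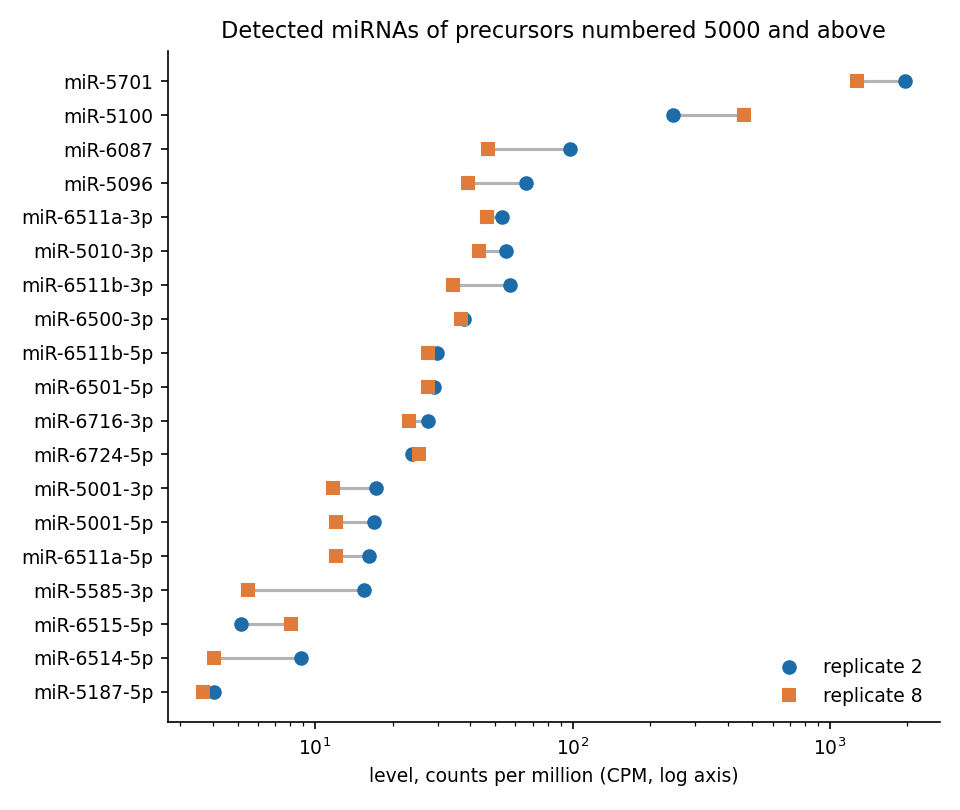
Level of the 19 detected members in CPM (x axis, log scale), one line each, with replicate 2 as circles and replicate 8 as squares joined by a bar. The level fell from 1612 CPM in the mean for miR-5701 to 3.85 CPM for miR-5187-5p, and the longest bars belong to miR-5585-3p, miR-6514-5p and miR-6087.

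The deposited table gives no position, so each RefSeq mature sequence was searched for exact matches on both strands of GRCh37, the build named for the files as hg19. Detected members had more copies than the rest of the group: 8 of 15 (53.3%) matched at 2 or more places, against 13 of 161 undetected members (8.07%) and 18.8% of all names with a sequence (323 of 1716). Among all detected names the share was 19.8%. Of the 8, 4 are miR-6511 names with overlapping copies, so they are not independent. How much reads from other copies add to these counts was not tested.

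The extreme was miR-5585-3p, whose 22 bases occur 677 times, on 24 chromosomes, 331 times on the plus strand and 346 times on the minus strand. Of these places, 233 lie in an annotated gene on the same strand and 212 in one on the opposite strand. The hairpin's own site is at chr1:32552587-32552608 on the plus strand, in an intron of TMEM39B. Of all names with a sequence, 8 had over 100 matches, and miR-5585-3p was the only one of them that was detected. The next most repeated detected member was miR-6500-3p, with 11 matches on 10 chromosomes, none of them in an annotated exon on the same strand.

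The most abundant member, miR-5701, matched 2 places on chromosome 15, at chr15:21145590-21145608 and chr15:22156775-22156793, in the genes MIR5701-1 and MIR5701-2 with no host gene. Its rows for the different hairpins carried the same counts, so the table cannot say which gene the reads came from. The sequence of miR-5100 matched once, at chr10:43493078-43493099 on the plus strand, in MIR5100 and in no other gene.

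Of the G- and C-rich miR-6724-5p, 2 copies were found, both on the unplaced scaffold GL000220.1 (bases 104742 to 104764 and 148714 to 148736). The annotation mapped to GRCh37 lists no gene there, not even a MIR6724 gene. Whether it covers this scaffold was not checked, so the sites cannot be called free of genes. In the RefSeq gene order of GRCh38.p14, 3 of the 4 MIR6724 genes on chromosome 21 are followed by an RNA45S gene, which encodes the precursor of the large ribosomal RNAs.

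Single sites that overlap an exon were found for 3 detected members, of which miR-6716-3p is described with the introns. The sequence of miR-6501-5p matched at chr21:34922970-34922991 on the plus strand in SON, a splicing cofactor, where 4 of 7 transcripts have coding sequence. That of miR-5001-5p matched at chr2:233415240-233415263 on the minus strand in an untranslated exon of TIGD1, in its 1 transcript.

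Many of the detected hairpins shared a position that the selection did not use. For the hairpins of the table with a 3p sequence, the distance from the last base of the 3p arm to the 3′ end of the intron around it was measured. Names with more than 11 exact matches were not followed. The 3p arm of mir-5585 is one of these, so this hairpin counts as not at an intron end. The hairpin of mir-5001, with both arms detected, has no 3p sequence in RefSeq and was left out. In 17 of 54 hairpins of the group (31.5%) the 3p arm ended within 2 bases of an intron's 3′ end, against 8.02% of all hairpins (47 of 586). Among hairpins of the group with a detected arm it was 10 of 13 (76.9%), and among those without, 7 of 41 (17.1%). Over the whole table, detected hairpins had no such excess, with 19 of 267 (7.12%) against 28 of 319 (8.78%). The whole-table values include the group itself, whose 10 and 7 are among these 19 and 28, with every miR-6511 copy counted. The miR-6511 hairpins are near-identical copies. Counted as 1 locus they leave 13 of 50 loci of the group, and 6 of 9 with a detected arm. No test was made of these shares, because hairpins that share a family or host are not replicates.

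These 6 loci lie in genes of different kinds. The 3p arm ends on the last base of the intron for mir-5010 (ATP6V0A1, a subunit of the vacuolar proton pump, intron of 144 bases), mir-5187 (TOMM40L, 302 bases), mir-6514 (NXF1, an mRNA export factor, 1556 bases) and mir-6515 (CALR, an endoplasmic reticulum chaperone, 88 bases). For mir-6716 in PHLDB1 it ends 2 bases before (131 bases). The introns of mir-5010, mir-6511, mir-6515 and mir-6716 are 144 bases or shorter. The 7 hairpins of the group with the same position and no detected arm are mir-5004, mir-5006, mir-5196, mir-6499, mir-6505, mir-6510 and mir-6513.

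The detected sequences of these loci match GRCh37 as follows. That of miR-5010-3p lies at chr17:40666285-40666306 on the plus strand, in none of the exons of the 29 transcripts of ATP6V0A1 that span it. That of miR-5187-5p lies at chr1:161196985-161197006 on the plus strand. That of miR-6514-5p lies at chr11:62560221-62560243 on the minus strand. That of miR-6716-3p lies at chr11:118514766-118514787 on the plus strand, inside an exon in 1 of the 14 PHLDB1 transcripts that span it.

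The hairpins of mir-5010, mir-6716 and the miR-6511 copies are printed here to show where their arms sit. They are RefSeq hairpins (GRCh38.p14), 5′ to 3′, with both mature arms in capitals.
MIR5010: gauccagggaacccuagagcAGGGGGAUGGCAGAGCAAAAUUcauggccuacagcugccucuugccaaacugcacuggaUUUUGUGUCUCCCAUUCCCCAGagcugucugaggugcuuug
MIR6716: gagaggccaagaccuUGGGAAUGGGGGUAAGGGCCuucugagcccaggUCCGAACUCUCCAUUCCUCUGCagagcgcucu
MIR6511A1: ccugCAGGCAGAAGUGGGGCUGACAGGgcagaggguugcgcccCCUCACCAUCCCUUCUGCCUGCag
MIR6511B1: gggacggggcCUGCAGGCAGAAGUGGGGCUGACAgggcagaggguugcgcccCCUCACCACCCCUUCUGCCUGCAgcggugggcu
In MIR5010 the 3p arm closes with the AG that ends the intron. In MIR6716 and MIR6511A1 the AG follows the arm, and in MIR6511B1 the arm includes its A.

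**Figure D3:**
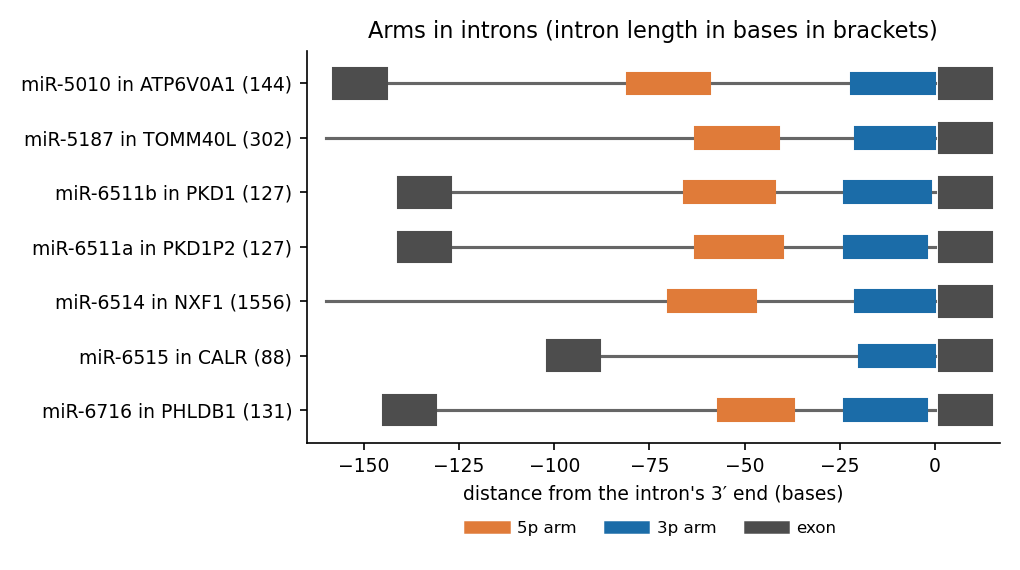
Position of the 5p arm (orange) and 3p arm (blue) in the intron of 7 hairpins at 6 loci, as distance in bases from the intron's 3′ end (x axis), with intron lengths in brackets. Exons are dark blocks drawn at one fixed width, introns longer than the axis run off to the left, and no 5p arm is drawn for miR-6515. The 3p arms end 0 to 2 bases from the exon.

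With 4 detected names, the miR-6511 family was the largest among the detected members. Together these names summed to 426 counts in replicate 2 and 329 in replicate 8. A read counted under several of these names would enter this sum more than once, and whether that happened is not known. The names miR-6511a-3p and miR-6511b-3p differ by U9C over 22 shared bases, counted from the 5′ end of miR-6511a-3p, which lies outside the seed. The 5p names have no mismatch over 21 shared bases, but miR-6511b-5p begins 3 bases earlier, which gives it another seed. Both 5p sequences match 7 places on chromosome 16, in PKD1, the polycystin gene, and its pseudogenes PKD1P1 to PKD1P6. The 3p names divide these places: miR-6511a-3p matched 5 (PKD1P1 to PKD1P5), and miR-6511b-3p matched 2, PKD1 at chr16:2156680-2156702 on the minus strand and PKD1P6 at chr16:15227933-15227955 on the minus strand. Every one of these places lies in an intron of 127 bases.

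The base that tells the 3p names apart therefore also tells PKD1 and PKD1P6 from the other copies. The miR-6511b form made up 156 of 301 3p counts in replicate 2, or 51.8% (Wilson interval 46.2 to 57.4), against 94 of 221 in replicate 8, or 42.5% (36.2 to 49.1). Both names thus reached detection in each library, and whether their split differed between libraries was not tested by itself. How the counter treated mismatches and reads with several matches is not known. The same reads may therefore be counted under both names, and the split and its intervals assume that they were not. Reads from PKD1 and from PKD1P6 cannot be told apart.

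Support from both arms was rare. Of the 157 precursors, 55 had a row for each arm, 94 had a single name without an arm and 8 had only 1 arm's row. Both arms reached 10 counts in both libraries in 6 of the 55 (10.9%), against 22.1% of all precursors with both rows (141 of 639). A further 8 hairpins had 1 detected arm, and 25 had no count on either arm in either library. Among hairpins with at least 1 detected arm, both were detected in 6 of 14 (42.9%) in the group, against 141 of 286 (49.3%) in the table. The nearness of these shares rests on the 5 miR-6511 hairpins, which share their 5p names. Counted as 1, they leave 2 hairpins with both arms beside the 8 with 1. Copies elsewhere in the table were not reduced in this way.

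The 6 hairpins are mir-5001, mir-6511a-1, mir-6511a-2, mir-6511a-3, mir-6511a-4 and mir-6511b-1. The 4 copies of mir-6511a carry identical counts, and all 5 miR-6511 hairpins list the same 5p names. Counted as 1, the miR-6511 hairpins leave 2 cases of support from both arms.

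The arms of mir-5001 were nearly equal. The 5p arm had 46 and 33 counts and the 3p arm 47 and 32, so the 5p share was 49.5% (Wilson interval 39.5 to 59.4) in replicate 2, against 50.8% (38.9 to 62.5) in replicate 8. The miR-6511 hairpins all list the same pair of 5p names, whose sequences match every copy, so no arm share can be given for a single one of them. Over the family, the 5p names had 81 and 75 counts (miR-6511b-5p) and 44 and 33 counts (miR-6511a-5p), and the 3p names together had 301 in replicate 2 and 221 in replicate 8. The 3p names therefore held more counts than the 5p names in both libraries.

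The other hairpins with a detected arm were one-sided. In mir-5010 the 3p arm had 150 and 118 counts and the 5p arm 7 in each library, a 5p share of 4.46% and 5.60%. In mir-6500, 103 and 101 counts on the 3p arm stood against 3 and 0 on the 5p arm. In mir-6501, 79 and 75 counts on the 5p arm stood against 0 and 1 on the 3p arm. For mir-6716 and mir-6515 the other arm had 0 counts in both libraries, and for mir-5187, mir-5585 and mir-6514 it had at most 4. The leading arm was the same in both libraries in each of these 8 hairpins. It was the 3p arm in mir-5010, mir-5585, mir-6500 and mir-6716, and the 5p arm in mir-5187, mir-6501, mir-6514 and mir-6515, so the loci at intron ends included both kinds. The 3p sequences of mir-5585 and mir-6500 match 677 and 11 places in the genome, and their 5p sequences 1 each. How many of these 3p counts came from the hairpins themselves was not tested.

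**Figure D4:**
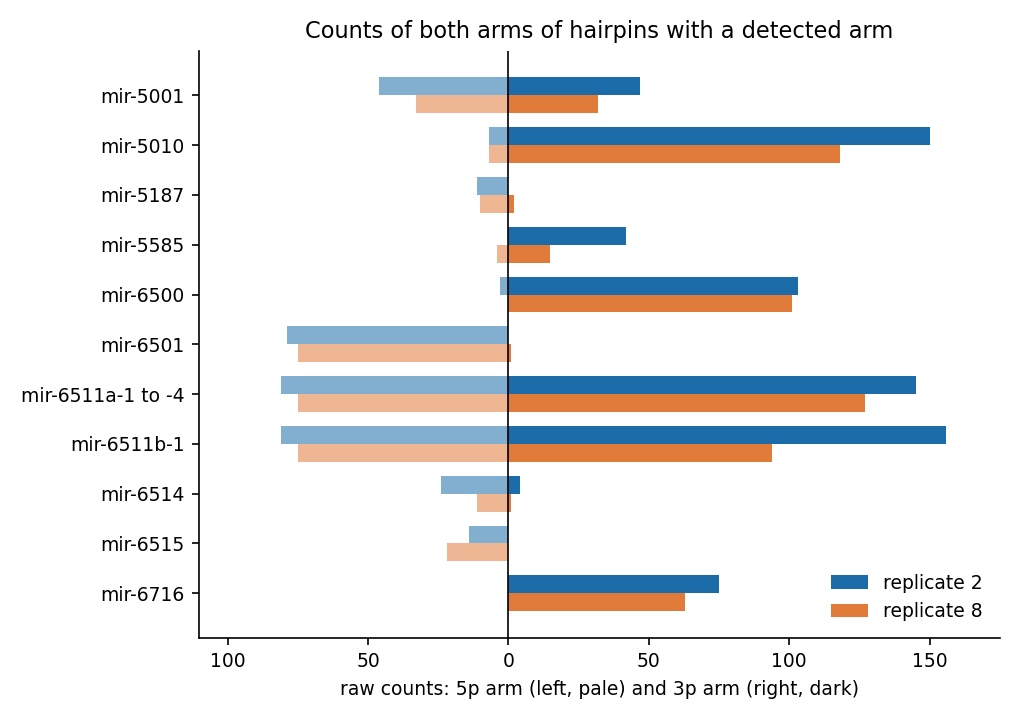
Raw counts of the 5p arm (left of 0, pale) and 3p arm (right of 0, dark) in replicate 2 (blue) and replicate 8 (orange) for each hairpin with both arm rows and a detected arm. The 4 copies of mir-6511a share 1 set of bars, and the 5p bars of all miR-6511 hairpins are the same counts of miR-6511b-5p, the larger of the 5p names they share. Bars of similar length on both sides are seen for mir-5001, the miR-6511 hairpins have bars on both sides, and the other 8 lean to 1 side.

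The agreement of the libraries was followed in the 33 members with at least 10 counts summed over both. An exact two-sided binomial test asked for each name whether its split departed from that of the library totals, with Benjamini-Hochberg adjustment over all 695 names of the table past this filter and a threshold of 0.05. It compares these 2 libraries, not conditions. By this test 6 members differed (18.2%), against 34.2% of all names. The only one higher in replicate 8 was miR-5100, which is 3.03% of the members against 10.8% of all names, and 5 were lower (15.2%), against 23.5% of all names.

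The share of called names rises with the count, so the members were also set beside names of the same depth. With 10 to below 100 summed counts, 1 of 21 members differed (4.76%) against 11.3% of all names, and with 100 to below 1000 counts 3 of 10 (30.0%) against 35.2%. The median absolute log2 ratio was 0.53 for members and for all names in the lower class, and 0.22 against 0.31 in the higher. Both members above 1000 counts differed, as did 76.4% of all such names, but their median absolute log2 ratio was 0.77 against 0.17. Outside these most abundant names, miR-5701 and miR-5100, the members thus varied between libraries about as much as other names of their depth.

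The log2 ratio of replicate 8 over replicate 2, with 0.5 counts added, was -0.62 for miR-5701 (95% exact interval -0.68 to -0.55, binomial adjusted p = 1.3e-85). For miR-5100 it was 0.92 (0.78 to 1.06, exact binomial adjusted p = 7.1e-41). The ratio was -1.06 for miR-6087 (-1.37 to -0.75, exact binomial adjusted p = 2.3e-11) and -0.75 for miR-5096 (-1.11 to -0.40, exact binomial adjusted p = 8.9e-05). For miR-6511b-3p it was -0.73 (-1.12 to -0.36, exact binomial adjusted p = 4.5e-04), while miR-6511a-3p, at -0.19, did not pass. Of the 6 members that differed, the steepest ratio was that of miR-5585-3p, the member with 677 matches, at -1.46 (-2.45 to -0.61, exact binomial adjusted p = 1.4e-03). All 4 abundant names without an arm were thus among the 6 that differed. These 4 were also the members with the highest counts, and the share of called names rises with the count.

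Among the most even members, miR-6500-3p, with 103 and 101 counts, had a log2 ratio of -0.03. Ratios over 2-fold in either direction were found for 7 of the 33 members (21.2%), against 13.4% of all names, and 6 of these 7 had fewer than 100 summed counts. Most members lay lower in replicate 8: 27 of 33 (81.8%) were below 0, against 61.2% of all names, at a median of -0.25 against -0.11. With TMM scaling, which moved all ratios up by 0.10, 22 of 33 were below 0 (66.7%), against 51.4% of all names, and the same 6 names differed.

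Across the 33 members the libraries gave a Pearson r of 0.967 and a Spearman rho of 0.901 on log2(CPM + 1). All 695 names gave 0.984 and 0.960. Without miR-5701 the members gave 0.953 and 0.891. These are correlations across miRNAs that share the same 2 libraries, which are not independent replicates, and they are given as descriptions.

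**Figure D5:**
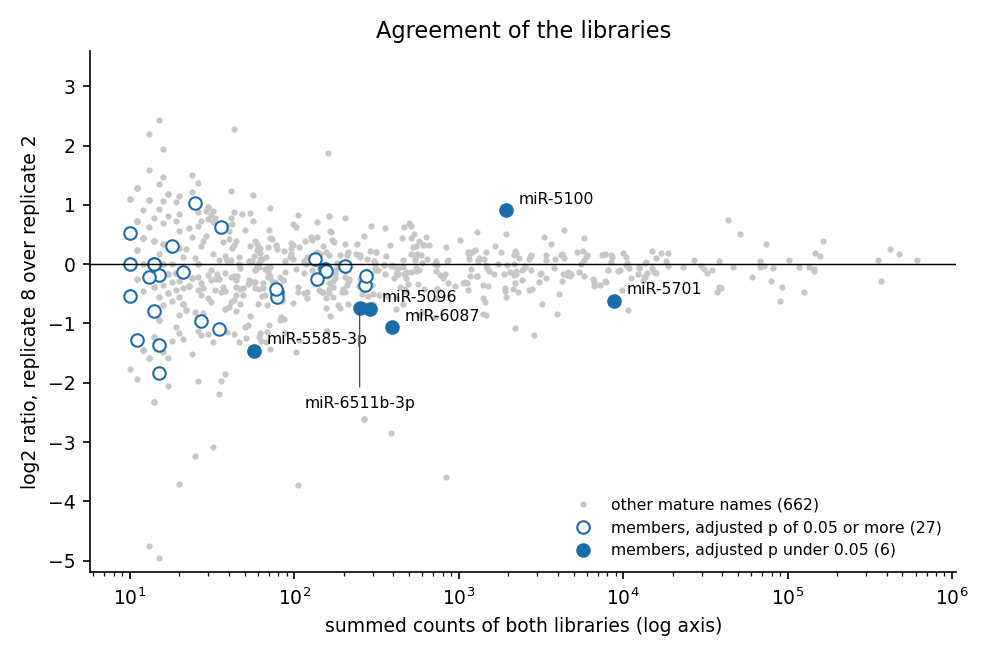
Log2 ratio of replicate 8 over replicate 2 (y axis) against the summed counts of both libraries (x axis, log scale) for the 695 names with at least 10 summed counts. Grey points are other names, open circles the 27 members with an adjusted p of 0.05 or more, and filled circles the 6 that differed, of which miR-5100 alone lies above 0.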

How the data were processed

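Small RNA of hCMEC/D3 was sequenced in 2 libraries of 1 group. Per the labels' protocols, adaptors were ligated to total RNA and the cDNA was amplified by PCR and size-selected on a gel. The authors' deposited table gives a raw count and an RPM value per library for each mature name and precursor. CASAVA 1.9, FastQC, cutadapt and Bowtie 0.12.7 and the build hg19 are named per the submitters' processing notes. The counter, its treatment of reads with several matches and the miRBase release are not given in the sources used here. The deposited RPM values equal the counts divided by 1 constant per library, which corresponds to 3180045 counts in replicate 2 and 3205752 in replicate 8. Both lie above the sums of all rows with repeats included, 3167238 and 3195174, and what they contain is not given.

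Repeated rows of a name were reduced to 1, that with the highest mean, and CPM were computed on those totals (2721287 and 2727675 counts). Python 3.11.15, scipy 1.17.1 and pandas 2.3.3 were used, with TMM factors from edgeR 4.0.16 and size factors from DESeq2 1.42.0 as alternatives. With 1 group no count model between conditions was fitted. Exact matches were searched in GRCh37 on both strands, with introns from GENCODE v44 mapped to that build. RefSeq held 176 of the 199 names.

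Members were taken by precursor number alone, but the rule, lists and tests were set with earlier results of these data known. Named with values are the 10 members with the highest mean CPM, hairpins with both arms detected, and in each direction up to 5 members past the adjusted threshold of 0.05 with the largest ratio and at least 20 summed counts. Any other detected member could be named with its counts. A few members just under the detection limit were also named, because of their values. The alternatives covered repeated rows, count minimums and filters, scaling, pseudocounts and leaving out each library.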

Additional observations from a re-analysis of the deposited data

How the results depend on the processing

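The count minimum and the treatment of repeated rows moved the number of detected members, 19, most: it was 48 at 1 or more counts in both libraries, 7 at 100 or more, and 31 when every row was counted, since copies then count several times. It was 28 at 5 or more counts, and 21 to 22 from a single library. The members' share of counts, 0.2518%, was 0.3813% with every row of the deposited RPM and 0.3813% with rows summed, both of which count the copies of miR-5701 repeatedly, and 0.0908% with miR-5701 taken out. It was 0.2206% to 0.2829% in single libraries. The number of members that differed, 6, ranged from 5 to 7 under TMM, DESeq2 size factors, other count filters and every row tested. The median absolute log2 ratio of 0.527 was 0.436 with TMM, 0.432 with DESeq2 size factors, 0.37 with 5 counts added and 0.301 with at least 100 summed counts; the last 2 damp or leave out low counts. Pearson's r, 0.967, lay between 0.958 and 0.977. In alternatives chosen after seeing the data, it was 0.953 without miR-5701, and with the 5 miR-6511 hairpins counted as 1 the hairpins with both arms fell from 6 to 2. The order of the libraries in the members' share turned round when miR-5701 was taken out. It was then 0.0879% in replicate 2 and 0.0934% in replicate 8, as shares of the full totals. The counts left include 668 and 1265 of miR-5100, the only member called higher in replicate 8. Under TMM or DESeq2 size factors 11 of the 33 members, not 6, had a ratio above 0. No paired analysis was possible because there is 1 group. Depth limits all names under 10 counts, where 3 counts are 1.10 CPM, and 2 libraries give a weak estimate of spread.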
